A study of Mus musculus with 3 samples.

Results

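The enzymes that make cholesterol and fatty acids, with the proteins that control them, were followed through 3 cultures of mouse pluripotent stem cells. The 33 members were listed by symbol, with no limit on a measured value but with earlier results of these data known, and 30 of them were read among the 22180 genes that a probe set with a single symbol represented. They comprised 16 enzymes of the sterol branch, 6 SREBP regulators and 8 fatty acid enzymes. Not analysed here were Acat2, for which no probe set carried the symbol, and Idi1 and Scd2, whose probe sets carried a further symbol. All 30 were above background on all 3 arrays. The background of an array was the intensity below which 95% of its olfactory and vomeronasal receptor probe sets fell. As log2 it was 5.59 in 2i, 5.50 in Activin+PD and 5.57 in mEpiSC.

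Each culture was measured on 1 Affymetrix Mouse Gene 2.0 ST array, and all were grown in the serum-free medium N2B27. The Activin+PD culture was the mouse embryonic stem cell (mESC) line EB3 after 64 days in Activin A, a ligand of the TGF-beta family, at 20 ng/ml and PD0325901, which inhibits the kinase MEK, at 2 µM. The 2i culture was EB3 after 34 days in PD0325901 and CHIR99021, an inhibitor of the kinase GSK3, both at 2 µM. The mEpiSC culture held epiblast stem cells induced from EB3, in Activin A at 20 ng/ml and bFGF at 12 ng/ml, for a time that the labels do not state. All 3 cultures thus trace to 1 cell line. Factors and days in culture differ together between the mESC cultures and cannot be told apart. Between mEpiSCs and the mESC cultures, factors, among them PD0325901 and bFGF, and cell state differ together and cannot be told apart either. Epiblast stem cells stand for the primed epiblast after implantation, whereas mESCs with MEK inhibited stand for the naive epiblast before it.

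With 1 array per culture there was no replicate spread and no test. In its place, the spread between probe sets of the same gene is given, from 497 genes with at least 2 probe sets above background on all arrays. On the log2 scale its SD was 0.33 in mEpiSC against 2i, 0.24 in Activin+PD against 2i and 0.30 in mEpiSC against Activin+PD, where the second array is subtracted from the first. It covers probe error and not the variation between cultures. Median intensity lay between 50.9 and 51.9 on the 3 arrays. The labels' tissue field reads mESCs for all samples, so the state of each culture was checked on markers. All 10 naive markers were above background on both mESC arrays and 6 on the mEpiSC array, where all 10 had their lowest level. All 8 primed markers were above background in mEpiSC and were highest there, against 7 above background in Activin+PD and 6 in 2i. In Activin+PD minus 2i, 2 of 7 compared were at least 1.5-fold higher, Otx2 at 2.26 and Fgf5 at 1.48. Another 2 were lower, Dnmt3b at -0.60 and Lef1 at -0.70. Such shares were 4.53% and 2.55% of all genes. Of 6 core pluripotency markers, Sox2, Nanog and Dppa4 were at least 2-fold lower in mEpiSC than in 2i and 0 higher. Of 13 fibroblast markers, Lum, Dcn, Postn and Fap were above background on no array. The summed intensity of the other 9 was 657 in Activin+PD, 660 in 2i and 853 in mEpiSC, of which Twist1 alone made up 73, 70 and 202. Of 11 extraembryonic endoderm markers, Sox7, Ttr and Cubn were above background on no array. The summed intensity of the other 8 was 506, 479 and 654 in the same order, of which Gata6 alone made up 38, 38 and 136. Dcx alone of 6 neural markers stayed below background on all arrays, and the other 5 summed to 968, 535 and 443, of which Tubb3 alone made up 641, 257 and 113. The part of such cells in the differences described here was not tested. In bulk RNA, a change in the share of cells of a type and a change in RNA per cell cannot be told apart.

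Cholesterol is built from acetyl-CoA through HMG-CoA, mevalonate, isoprenyl diphosphates, squalene and lanosterol. The transcription factor SREBP-2, encoded by Srebf2, drives most genes of this route, and SREBP-1, encoded by Srebf1, leans towards fatty acid synthesis. Both precursors sit in the endoplasmic reticulum with SCAP, which escorts them to the Golgi for cleavage when sterols are scarce. INSIG proteins hold SCAP back when sterols are plentiful. Nuclear SREBP binds promoters together with NF-Y, which recognises CCAAT boxes, and Sp1, which recognises GC boxes.

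Across the whole group, mEpiSCs stood highest for 21 of the 30 members and the 2i culture lowest for 24. Over the 14526 genes above background on any array, the mEpiSC array was the highest for 44.2% and the 2i array the lowest for 30.3%. In mEpiSCs against 2i, 10 members were at least 2-fold higher, where 4.53% of all 14202 genes compared were, and 1 was at least 2-fold lower, where 4.96% were. At 1.5-fold, 15 members were higher and 1 lower, beside 9.51% and 10.2% of all genes. In Activin+PD against 2i no member was 2-fold apart, where 1.37% of 14059 genes were higher and 0.818% lower. With 30 members, a count of none is near these shares. At 1.5-fold, 5 members were higher and 0 lower in that comparison, beside 4.53% and 2.55% of all genes. In mEpiSCs against Activin+PD, 1 member was at least 2-fold higher and 1 lower, where 3.58% and 5.37% of 14397 genes were. At 1.5-fold the counts were 10 higher and 2 lower, beside 8.72% and 10.9%. The comparisons share arrays, so their values are given side by side and are not independent.

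**Figure D1:**
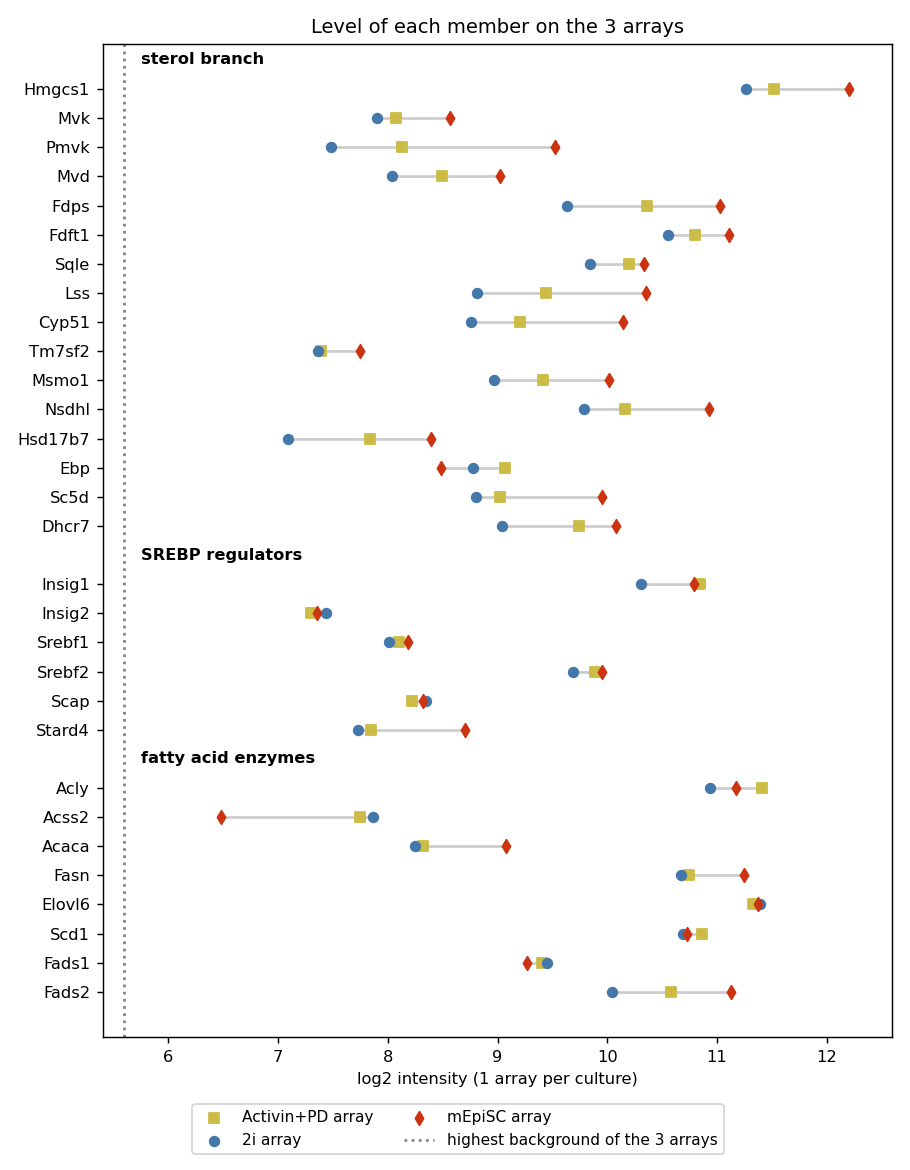
Log2 intensity (horizontal axis) of each of the 30 members (rows, in 3 groups) on the Activin+PD (squares), 2i (circles) and mEpiSC (diamonds) arrays, with the range as a grey line and the highest background, 5.59, dotted. Among the sterol enzymes the 2i circle is leftmost and the mEpiSC diamond rightmost in 15 of 16 rows, the exception being Ebp, whereas most SREBP regulators and several fatty acid enzymes show nearly coinciding symbols; positions of different genes are not comparable, since each has its own probes.

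The sterol branch carried most of these differences. Of its 16 enzymes, 15 were highest in mEpiSCs and lowest in 2i, with Activin+PD in between. The median log2 difference was 1.04 in mEpiSC against 2i, 0.41 in Activin+PD against 2i and 0.57 in mEpiSC against Activin+PD. Over all genes compared, the medians were 0.03, -0.01 and 0.04. At 2-fold, 9 of the 16 were higher in mEpiSCs than in 2i and 0 lower, beside 4.53% and 4.96% of all genes. All 16 were above the 2i level in Activin+PD, by log2 differences of 0.03 to 0.75.

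Promoters of this branch were set beside these values because its genes had nearly the same order over the cultures. Shown are the 250 bases before the annotated start, 5′ to 3′ on the gene's strand, from RefSeq on GRCm38.p6, for the 4 sterol enzymes with the largest mEpiSC minus 2i difference among those in the table. Ebp, the exception, follows and was chosen after its values were seen. Capitals mark matches on either strand to the CCAAT box, to the GC box GGGCGG, to the E-box CACGTG or to TCACNCCAC, a form of the sterol regulatory element.
Pmvk, chr3:89454291-89454540, plus strand: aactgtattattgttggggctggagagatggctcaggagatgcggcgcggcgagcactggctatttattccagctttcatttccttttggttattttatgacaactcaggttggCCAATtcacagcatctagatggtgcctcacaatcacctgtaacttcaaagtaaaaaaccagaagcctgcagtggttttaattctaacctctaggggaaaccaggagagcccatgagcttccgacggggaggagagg
Lss, chr10:76531355-76531604, plus strand: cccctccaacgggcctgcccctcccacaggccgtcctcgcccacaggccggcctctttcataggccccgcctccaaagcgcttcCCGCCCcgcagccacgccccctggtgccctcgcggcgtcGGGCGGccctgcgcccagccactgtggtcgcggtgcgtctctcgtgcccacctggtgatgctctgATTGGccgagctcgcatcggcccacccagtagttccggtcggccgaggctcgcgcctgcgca
Cyp51, chr5:4104698-4104947, minus strand: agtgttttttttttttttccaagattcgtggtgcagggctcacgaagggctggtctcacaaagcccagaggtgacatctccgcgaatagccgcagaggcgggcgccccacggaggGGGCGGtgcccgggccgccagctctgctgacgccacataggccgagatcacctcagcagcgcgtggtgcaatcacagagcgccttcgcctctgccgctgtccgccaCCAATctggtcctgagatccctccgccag
Hsd17b7, chr1:169969206-169969455, minus strand: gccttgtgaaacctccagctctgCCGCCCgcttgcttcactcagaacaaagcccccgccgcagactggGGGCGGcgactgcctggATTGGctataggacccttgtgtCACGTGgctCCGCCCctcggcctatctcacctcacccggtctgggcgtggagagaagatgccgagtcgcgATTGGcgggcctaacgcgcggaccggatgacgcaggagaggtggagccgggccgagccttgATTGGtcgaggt
Ebp, chrX:8193513-8193762, minus strand: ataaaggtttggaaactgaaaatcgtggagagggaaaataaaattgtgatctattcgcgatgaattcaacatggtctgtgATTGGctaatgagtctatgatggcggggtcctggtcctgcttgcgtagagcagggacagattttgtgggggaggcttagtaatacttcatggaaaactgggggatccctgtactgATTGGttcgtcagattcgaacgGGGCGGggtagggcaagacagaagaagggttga

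The 5 promoters differ in which letters they hold. That of Pmvk has 1 CCAAT match and no GC box. That of Lss has 1 CCAAT match, read on the opposite strand as ATTGG, and 2 GC boxes, and that of Cyp51 has 1 of each. The promoter of Hsd17b7 holds 3 CCAAT matches, 3 GC boxes and 1 E-box, CACGTG. That of Ebp holds 2 CCAAT matches and 1 GC box, so the letters searched do not set it apart from the others. Of the 26 members in the promoter table, 15 belong to the sterol branch, Acat2 and Idi1 included. In these 15, CCAAT was found in 13 and GGGCGG in 14. The 5 regulators in the table held CCAAT in 4 and GGGCGG in 2, and the 6 fatty acid enzymes in 2 and 3. Among 10820 protein-coding genes above background on any array, 36.2% held CCAAT and 57.6% GGGCGG in the same window, and among all 17491 protein-coding genes 36.5% and 42.7% did. Median GC content was 62.8% in the sterol promoters, 59.6% in those of genes above background and 55.2% in all. The E-box was present in 2 of the 15, beside 8.38% of promoters of genes above background. The element TCACNCCAC was found in Hmgcs1 alone of the 26, 137 bases before the start, beside 0.998%. Matches of these motifs may overlap one another and are descriptions of letters, not of binding.

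The mevalonate steps were higher in mEpiSCs throughout, with 5 of 5 enzymes past 1.5-fold against 2i, where 9.51% of all genes were. Hmgcs1, which makes HMG-CoA, stood at a log2 level of 12.20 in mEpiSC, 11.52 in Activin+PD and 11.27 in 2i. Mvk, mevalonate kinase, stood at 8.56, 8.07 and 7.90 in the same order. Its mEpiSC minus 2i difference of 0.66 was the smallest of these steps. Pmvk, phosphomevalonate kinase, which adds the second phosphate, had levels of 9.52, 8.13 and 7.49. It was the member with the largest differences, 4.11-fold or 2.04 on the log2 scale in mEpiSC against 2i and 1.40 against Activin+PD, and the only one 2-fold higher in the latter comparison. In mEpiSC minus 2i it stood at rank 143 from the top of 14202 genes. Mvd, which decarboxylates the product of Pmvk, was at 9.02, 8.49 and 8.04. Fdps, which joins isoprenyl units into farnesyl diphosphate, was at 11.03, 10.36 and 9.64. Fdps had differences of 1.39 for mEpiSC minus 2i and 0.72 for Activin+PD minus 2i, the second being 2.96 times the probe set SD.

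The steps from farnesyl diphosphate to lanosterol were uneven. Fdft1, squalene synthase, had log2 levels of 11.11 in mEpiSC, 10.80 in Activin+PD and 10.55 in 2i. Sqle, squalene epoxidase and a rate-limiting enzyme of the route, stood at 10.34, 10.19 and 9.84. Both were less than 1.5-fold higher in mEpiSCs than in 2i, by 0.56 and 0.50. For Sqle the difference between mEpiSC and Activin+PD, 0.14, was smaller than the probe set SD. Lss, which closes squalene epoxide into the ring system of lanosterol, stood at 10.36, 9.44 and 8.81. Lss was 1.54 above 2i and 0.91 above Activin+PD in mEpiSC on the log2 scale, and 0.63 above 2i in Activin+PD.

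**Figure D2:**
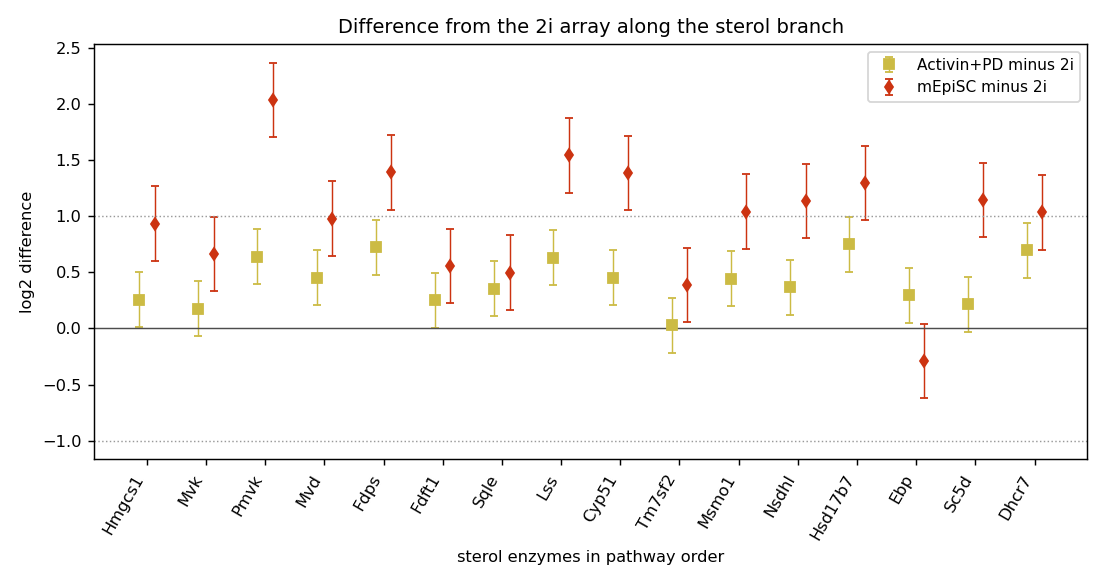
Log2 difference from the 2i array (vertical axis) for the 16 sterol enzymes in pathway order, for Activin+PD (squares) and mEpiSC (diamonds), with bars of 1 probe set SD (0.24 and 0.33) and dotted lines at 2-fold. Diamonds lie above squares for every enzyme but Ebp, with Pmvk highest at 2.04 and Ebp at -0.29.

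Among 8 enzymes that turn lanosterol into cholesterol, 6 were at least 2-fold higher in mEpiSCs than in 2i, beside 4.53% of all genes. Cyp51, the lanosterol demethylase, had log2 levels of 10.14 in mEpiSC, 9.21 in Activin+PD and 8.76 in 2i, a difference of 1.39 between the outer ones. Msmo1 and Nsdhl, which take part in removing the methyl groups of the sterol ring, followed. Msmo1 was at 10.01, 9.41 and 8.97, and Nsdhl at 10.93, 10.16 and 9.79. Hsd17b7, the ketone reductase of the same complex, was at 8.39, 7.84 and 7.09. Its 0.75 for Activin+PD minus 2i was the largest of any member in that comparison. Sc5d, a sterol desaturase, was at 9.95, 9.02 and 8.80, so that it lay within the probe set SD of 2i in Activin+PD and was 0.93 higher in mEpiSC than in Activin+PD. Dhcr7, which catalyses the last reduction to cholesterol, was at 10.08, 9.74 and 9.04. Here Activin+PD lay nearer to mEpiSC, with 0.70 above 2i and 0.34 below mEpiSC.

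The remaining enzymes of this segment were less than 1.5-fold apart between mEpiSC and 2i. Tm7sf2, a sterol reductase whose activity the lamin B receptor Lbr also has, was at 7.75 in mEpiSC, 7.39 in Activin+PD and 7.36 in 2i. Its mESC levels differed by less than the probe set SD. Ebp, the isomerase that shifts a double bond of the sterol ring, was the sterol enzyme with its lowest level in mEpiSCs, 8.48, against 9.07 in Activin+PD and 8.77 in 2i. The mEpiSC minus 2i difference of Ebp, -0.29, was within the probe set SD, and the mEpiSC minus Activin+PD difference was -0.59, just past 1.5-fold. Of 5 listed sterol genes outside the members, 3 were analysed. None was 1.5-fold apart in any comparison, beside 7.08% to 19.8% of all genes. With 3 genes, a count of none is near these shares. Lbr stood at 10.67 in mEpiSC, 10.86 in Activin+PD and 10.52 in 2i, and Idi2 at 6.17, 6.23 and 5.85.

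The regulators differed less than the sterol enzymes did, by their medians. No SREBP regulator was 2-fold apart in any comparison. Over all genes compared, 9.5% were in mEpiSC against 2i, 2.19% in Activin+PD against 2i and 8.95% in mEpiSC against Activin+PD. With 6 genes, a count of none is near these shares. The medians of the 6 were 0.22 in mEpiSC against 2i, 0.10 in Activin+PD against 2i and 0.07 in mEpiSC against Activin+PD. Srebf2 had log2 levels of 9.95 in mEpiSC, 9.89 in Activin+PD and 9.69 in 2i. Srebf1 had 8.18, 8.10 and 8.01, and Scap 8.32, 8.22 and 8.35. All differences of these 3 genes were within the probe set SD. For Scap a second, dimmer probe set gave -0.14 in Activin+PD against 2i and -0.02 in mEpiSC against 2i, beside -0.13 and -0.02 on the probe set used, and the sign of its mEpiSC minus 2i difference changed with the normalisation.

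The INSIG genes did not share an order with each other. Insig1, itself a target of SREBP, was at 10.84 in Activin+PD, 10.79 in mEpiSC and 10.31 in 2i. It was thus about as high in Activin+PD as in mEpiSC, 0.53 and 0.48 above 2i. These cultures received Activin A and no CHIR99021, and the factors cannot be told apart. Insig2 was at 7.30, 7.35 and 7.43 in the same order, all within the probe set SD. Stard4, a soluble carrier that moves cholesterol between membranes and an SREBP target, was at 7.84 in Activin+PD, 8.70 in mEpiSC and 7.72 in 2i. Its mEpiSC minus 2i difference, 0.98, was the largest of this group and just short of 2-fold. These genes give mRNA levels only, and the cleavage of SREBP proteins was not measured.

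Of 12 further genes that process SREBPs or degrade HMG-CoA reductase, none was 2-fold apart in any comparison, beside 2.19% to 9.5% of all genes. A count of none among so few genes is near those shares. The medians of the 12 were 0.03 for both comparisons with 2i. Erlin1, an endoplasmic reticulum protein of the degradation route, was at 6.62 in mEpiSC, 7.50 in Activin+PD and 7.47 in 2i. Pgrmc1, a membrane heme protein that binds sterol enzymes, was at 8.93, 9.75 and 9.26.

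The fatty acid enzymes did not share one order. Of 8, the 2-fold limit was passed upwards by 1 and downwards by 1 in mEpiSCs against 2i, beside 4.53% and 4.96% of all genes. The medians of the 8 were 0.14 in mEpiSC against 2i, 0.07 in Activin+PD against 2i and -0.05 in mEpiSC against Activin+PD. The suppliers of cytosolic acetyl-CoA differed in direction. Acly, which makes it from citrate, stood at a log2 level of 11.18 in mEpiSC, 11.41 in Activin+PD and 10.94 in 2i. Acss2, which makes it from acetate, stood at 6.48, 7.75 and 7.87. Acss2 was 2.62-fold lower in mEpiSC than in 2i and 2.41-fold lower than in Activin+PD, log2 differences of -1.39 and -1.27. It was the only member at least 2-fold lower in any comparison. Its mESC levels differed by -0.12, within the probe set SD.

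Acaca and Fasn, which start and build the fatty acid chain, were higher in mEpiSCs than in the mESC cultures. Acaca, the acetyl-CoA carboxylase that commits carbon to fatty acids, was at 9.08 in mEpiSC, 8.32 in Activin+PD and 8.25 in 2i. Fasn, fatty acid synthase, was at 11.25, 10.75 and 10.68. Their mEpiSC minus 2i differences were 0.83 and 0.57, and their Activin+PD minus 2i differences, 0.08 and 0.07, were within the probe set SD. Elovl6, which lengthens palmitate to stearate, was at 11.37, 11.33 and 11.39. Scd1, which makes oleate from stearate, was at 10.72, 10.86 and 10.69. No difference of Elovl6 or Scd1 exceeded the probe set SD.

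The desaturases of polyunsaturated fatty acids parted. Fads2 had log2 levels of 11.12 in mEpiSC, 10.58 in Activin+PD and 10.04 in 2i, the order of the sterol enzymes. It was 2.12-fold higher in mEpiSC than in 2i, a log2 difference of 1.08. Fads1, its neighbour with 0 protein-coding genes between them in RefSeq on GRCm38.p6, was at 9.27, 9.41 and 9.45. The differences of Fads1 were at most 0.18 in size and within the probe set SD. Among 38 other listed lipogenic genes, 31 were compared between mEpiSC and 2i, with a median of 0.07. Of these, 5 were at least 2-fold higher and 0 lower, beside 4.53% and 4.96% of all genes. Acsl5, which activates fatty acids with CoA, was higher by 2.20, and Acsl4, of the same family, stood at 9.97 against 8.77. Mid1ip1, an activator of acetyl-CoA carboxylase, was higher by 1.504, with another probe set at 0.72 and one more below background on all arrays. Aacs, which activates acetoacetate in the cytosol for lipid synthesis, was higher by 1.11, and Hacd1, a dehydratase of fatty acid elongation, by 1.07. None of 32 compared between Activin+PD and 2i was 1.5-fold apart, where 7.08% of all genes were. With 32 genes, a count of none is not far from that share.

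**Figure D3:**
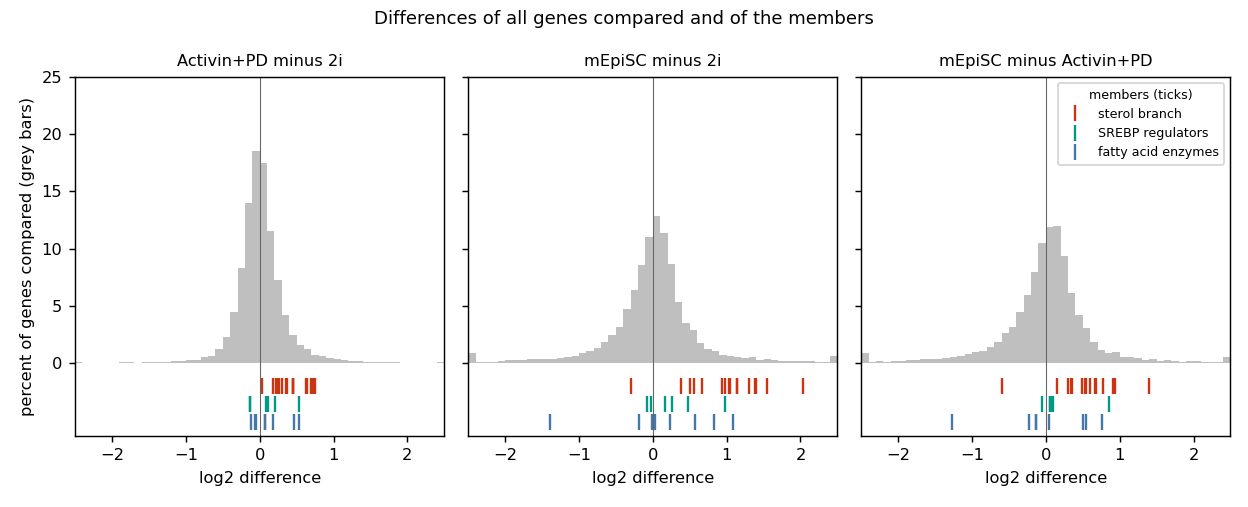
Share of all genes compared (grey bars, percent, in bins of 0.1) by log2 difference in the 3 comparisons, with genes beyond 2.5 in the end bins and the members as ticks below zero by group. The sterol ticks lie to the right of the centre in all 3 panels except for Ebp in the last 2, while regulators and fatty acid enzymes spread around the centre; Acss2 is the fatty acid tick at -1.39 for mEpiSC minus 2i.

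Genes that take up or export sterols were described from lists beside the members. Of 15 genes of uptake and trafficking, the 2-fold limit was passed upwards by 2 and downwards by 1 in mEpiSCs against 2i. Over all genes, 4.53% and 4.96% passed it. The median of the 15 was -0.15. Lrp8, a lipoprotein receptor that binds apolipoprotein E and reelin, stood at 9.11 in mEpiSC, 7.60 in Activin+PD and 6.78 in 2i. Lipa, the lysosomal lipase that frees cholesterol from its esters, stood at 8.20, 7.46 and 6.23, and was also 2-fold higher in Activin+PD than in 2i, by 1.23. Both had the order of the sterol enzymes. Gramd1b, which carries cholesterol from the plasma membrane to the endoplasmic reticulum, was at 5.94, 7.40 and 7.03.

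The list of LXR and sterol efflux genes had a median of -0.40 for mEpiSC minus 2i over 10 genes compared. Of these, 2 were at least 2-fold lower and 0 higher, beside 4.96% and 4.53% of all genes. LXRs are nuclear receptors that oxysterols activate, and they drive cholesterol export. Abca1, which loads cholesterol onto apolipoprotein A-I, was at 5.78 in mEpiSC, 7.04 in Activin+PD and 7.07 in 2i. Abcg1, which exports cholesterol to larger particles, was at 6.74, 8.02 and 7.33, and was 2-fold lower in mEpiSC against Activin+PD, at -1.29. Cyp7b1, an oxysterol hydroxylase, was at 6.30, 6.91 and 7.36, with -1.06 for mEpiSC minus 2i. Of the 10 genes of the list above background on any array, 7 were lowest in mEpiSCs and 3 highest there. Over all genes above background on any array, 35.9% were lowest in mEpiSCs and 44.2% highest there. The mEpiSC level of Abca1 was close to the background of 5.57. Abcg1 was 0.69 higher in Activin+PD than in 2i, the direction that the sterol enzymes had in that comparison. A link between efflux and synthesis genes was not tested.

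**Figure D4:**
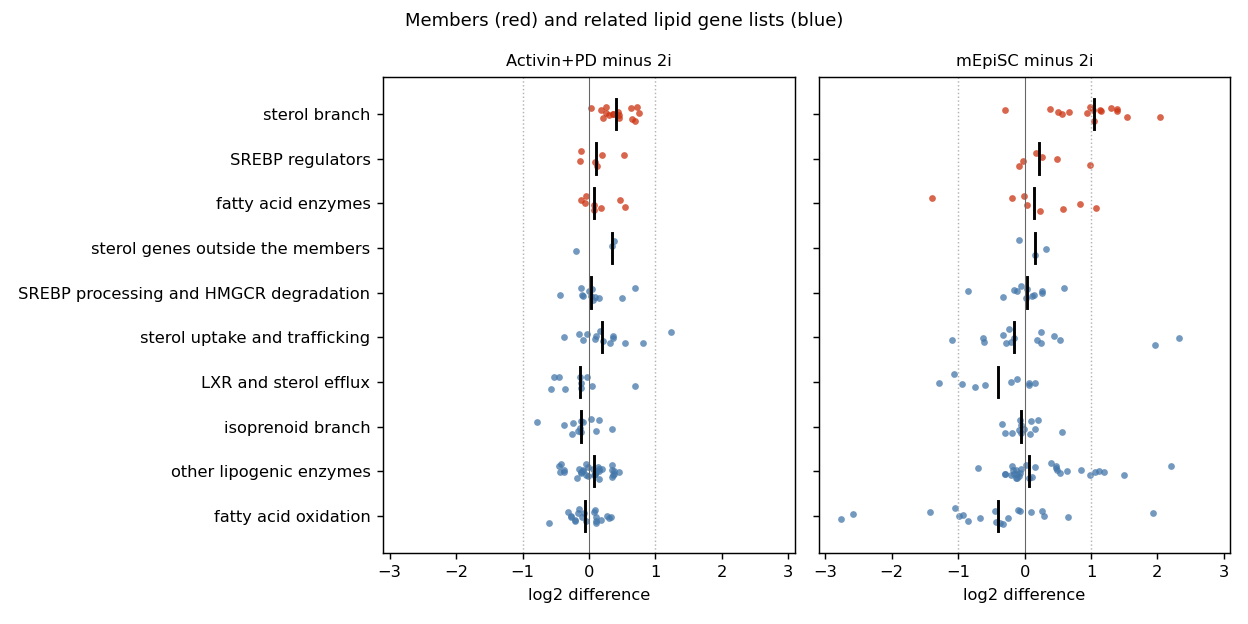
Log2 difference (horizontal axis) of single genes (points) and list medians (black bars) for the 3 member groups (red) and 7 related lists (blue), for Activin+PD minus 2i (left) and mEpiSC minus 2i (right), with dotted lines at 2-fold. The sterol branch has the rightmost median in both panels, 0.41 and 1.04, and the medians of LXR and sterol efflux and of fatty acid oxidation, both -0.40, are leftmost on the right.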

How the data were processed

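Per the submitters' processing notes the values came from RMA, and the series' design text names GeneSpring GX 11.5, while no source used here names a genome build. The deposited table held 1 linear intensity per probe set and array for 33793 probe sets, and log2 of each deposited intensity was taken. The design had assumed log2 values. RMA makes the arrays' distributions alike, which hides any change in total RNA. Of the probe sets, 23521 had 1 gene symbol in the platform annotation, 1814 several and 8458 none. The Entrez identifier matched a RefSeq gene for 23328, and the symbol of that gene was used, whether or not it differed. A gene was represented by its probe set with the highest mean. A gene was compared where either array was above its own background, the 95th percentile of 1400 receptor probe sets. No test was possible with 1 array per culture, and the arrays' number limits the precision. A fold is 2 to the power of a log2 difference. The functions were tested on simulated data. Python 3.11.15, numpy 2.4.6 and pandas 2.3.3 were used.

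The members and lists were chosen with earlier results of these data known. All members are named. Genes of the related lists are named where at least 2-fold apart, and otherwise the 2 with the largest difference of a list. Promoters came from RefSeq (GRCm38.p6), with the most upstream start of each gene. Alternatives were quantile normalisation, median centring, subtraction of 16 from each intensity, raising values below background to it, no background filter, and the mean over a gene's probe sets.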

Additional observations from a re-analysis of the deposited data

How the results depend on the processing

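Under the 6 alternatives every member count stayed within 1.5 times its value and every group median kept its sign. The count of members 2-fold apart in mEpiSC against 2i was 11, 12 with the arrays quantile-normalised and 13 with 16 subtracted from each intensity, which tries whether a constant sits in the values. Over all genes, that subtraction raised those 2-fold higher in Activin+PD than in 2i from 193 to 295. The sterol median for mEpiSC minus 2i ranged from 1.02 to 1.06, and for Activin+PD minus 2i from 0.40 to 0.41. The Scap difference for mEpiSC minus 2i changed sign, from -0.05 to 0.02; no other member difference did. The background filter and the raising of dim values changed no member, since all were above background. The mean over probe sets could change Scap alone, the only member with 2 probe sets. No paired analysis was possible because each culture has 1 array and the labels give no replicate numbers. Signal over background limits little among the members, the lowest level being 6.48 for Acss2 against a background of 5.57.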

Other observations

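Genes of fatty acid oxidation, which burns what the synthesis enzymes make, were mostly lower in mEpiSCs. Of 20 compared with 2i, 4 were at least 2-fold lower and 1 higher, beside 4.96% and 4.53% of all genes, with a median of -0.40. Cpt1a, the gate for long chains into mitochondria, had log2 levels of 5.73 in mEpiSC, 8.59 in Activin+PD and 8.32 in 2i. Slc25a20, the carnitine carrier of the inner membrane, had 6.69, 8.85 and 9.45. The mEpiSC level of Cpt1a was close to the background of 5.57. Further along, the thiolase gene Acaa2 stood at -1.43 and the dehydrogenase gene Hadh at -1.04 for mEpiSC minus 2i. Against Activin+PD, Acadm, a medium-chain dehydrogenase, and Etfb, an electron carrier subunit, were at -1.03 and -1.29. Acadl, the long-chain acyl-CoA dehydrogenase, went the other way at 8.46, 6.70 and 6.52. In Activin+PD against 2i none of 20 was 2-fold apart, beside 2.19% of all genes. A count of none among 20 genes is near that share.

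The branch that leads from farnesyl diphosphate to other isoprenoids did not, as a list, show the order of the sterol enzymes. Of its 13 genes, 5 were highest in mEpiSCs and 1 was lowest in 2i. Over all genes above background on any array, 44.2% and 30.3% were, so the first count is near its share. None of 13 genes compared was 2-fold apart in any comparison, beside 2.19% to 9.5% of all genes. A count of none among so few genes is near those shares. The median for mEpiSC minus 2i was -0.05. Ggps1, which makes geranylgeranyl diphosphate, did have the sterol order, at 8.62 in mEpiSC, 8.40 in Activin+PD and 8.06 in 2i. Coq2, an enzyme of ubiquinone synthesis, was at 6.78, 6.20 and 6.98.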
